A study of Homo sapiens with 30 samples.

Results

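Doxycycline (dox) induction of MEF2C in LOUCY cells growing on OP9-GFP stroma was read on 6 of the 30 arrays of the series. The arrays were taken by their labels, 3 with dox (M_GFP+1 to M_GFP+3) and 3 without (M_GFP-1 to M_GFP-3), and no measured value was used to choose them. LOUCY is an established human cell line from an early thymocyte progenitor leukemia (ETP-ALL) that already expresses *MEF2C* because of a rearrangement near the gene. All 6 arrays hold the LOUCY_MEF2C-BFP line, a transduced and sorted bulk population that carries a dox-inducible, codon-optimized and HA-tagged *MEF2C* without its beta domain, followed by a self-cleaving peptide and blue fluorescent protein (BFP). OP9-GFP cells are mouse bone marrow stromal cells that carry green fluorescent protein and display no Delta-like 1, the Notch ligand that sets OP9-DL1 cells apart. The groups differ only in dox, so an effect of MEF2C and an effect of dox itself cannot be told apart within these 6 arrays. The same line was also profiled in medium (6 arrays) and on OP9-DL1 (6 arrays), and those induction effects share no array with the ones described here. The sources used here do not give how long the cells had been on stroma before the RNA was taken.

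MEF2C is a MADS box transcription factor. It is best known from muscle and heart development, and in blood it acts in lymphoid and B cell precursors while it is normally silent in T cells. Class IIa histone deacetylases hold it inactive. Notch signaling drives the T cell fate against the B cell fate, and *HES1*, a repressor that Notch switches on directly, is the target most often used to read it.

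Values are log2 expression levels made by the authors with RMA, and 1 unit is a 2-fold difference. A gene rose or fell where the adjusted p of limma was under 0.05, with Benjamini-Hochberg adjustment over 54613 probe sets and the spread estimated from all 30 arrays. Each gene is read from its brightest probe set on average over all 30 arrays, and levels of different probe sets cannot be compared. Other probe sets of a gene did not always pass the test, and their counts are given for some genes only. Whether the 3 arrays of a group are separate cultures is not stated. The spread behind each p-value is that between arrays and may be technical. The 3 arrays with dox correlated at 0.9963 to 0.9978 with each other across probe sets and those without dox at 0.9905 to 0.9952. Array 2 without dox had the lowest correlations of the 6 (0.9905 and 0.9926 with the other 2 of its group). Leaving it out took the count of changed probe sets from 3379 to 2660. The count was lower still without array 1, 2 or 3 with dox (2387, 2363 and 2400). Without array 1 or 3 without dox it was 3808 and 3776. Array 2 without dox also read low where the other 5 arrays lay close together. Examples are *HES4* (5.47 against 7.80 to 8.07) and the surrogate light chain gene *IGLL1* (12.23 against 12.70 to 12.85).

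*MEF2C* itself is named on 3 probe sets in the annotation used here, which moved in opposite directions. The study counts a further one, which was not analysed here as *MEF2C*. The dimmest of the 3 read 7.83, 6.90 and 7.68 without dox and 8.68, 8.72 and 8.67 with dox, a rise of 1.23 ± 0.14 (SE, adjusted p = 1.6e-06). The value of 6.90 is that of array 2 without dox, and the SD without dox was 0.50. The brightest read 10.13, 10.06 and 10.09 without dox and 8.98, 8.98 and 8.95 with dox, and it fell by 1.12 on the log2 scale (adjusted p = 1.4e-14). The remaining probe set read 9.91, 10.03 and 9.80 without dox and 8.77, 8.70 and 8.69 with dox, and it fell by 1.19 (adjusted p = 7.1e-13). In each of the 3 the groups did not overlap. In the study's description a single *MEF2C* probe set also covers the cloned sequence, while the others lie outside it and read the cell's own gene. Its text does not give their identifiers, and no probe sequences were used here to assign them. Of the 3 measured here 1 rose and 2 fell. None of the 3 differed from its induction effect in medium or on OP9-DL1 at an adjusted p under 0.05. The probe set that rose did so by 0.53 in medium and 0.63 on OP9-DL1 (adjusted p of the differences 0.23 and 0.37).

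Of 9 markers of LOUCY cells, 8 had a mean above 5 without dox, *CD2* read 3.52, and the mean level of the 9 was 9.31 to 9.40 per array without dox and 9.06 to 9.07 with dox. The falls of *CD3D*, *LCK*, *PTPRC*, *HHEX* and *LYL1* and the rise of *GATA3* passed the test. In bulk RNA, fewer cells of a type and less RNA per cell cannot be told apart. The mean level of 12 marker genes of OP9 cells was 4.40 to 4.53 on OP9-GFP without dox and 4.26 to 4.34 with dox, against 4.36 to 4.53 and 4.23 to 4.36 in medium, where no stroma was present. The markers *LUM*, *VCAM1* and *ADIPOQ* had means of 2.08 to 2.63 on OP9-GFP without dox, and the brightest, *SPARC*, had 8.98 there and 9.32 in medium. *COL1A2*, a collagen I chain, was the 1 marker of the 12 that was higher on OP9-GFP than in medium without dox (5.21 against 4.41, adjusted p = 0.01), and 2 were lower, *SPARC* and *DCN*. OP9 cells are of mouse origin and the probes are human, so mouse RNA is read only as far as it binds to them.

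Across 19775 genes, 600 rose with dox on OP9-GFP (3.03% of those tested) and 905 fell (4.58%). A change beyond 2-fold was seen in 60 genes that rose and 54 that fell. The largest fitted rise was in *SCG2* (secretogranin II, a cargo protein of secretory granules), which read 3.17, 3.64 and 2.93 without dox and 8.70, 8.51 and 8.50 with dox. This is a 40.0-fold difference as fitted (log2 5.32 ± 0.13, SE, n = 3 and 3, adjusted p = 1e-19), and the lowest array with dox was far above the highest without. *JCHAIN*, which encodes the chain that joins IgM and IgA molecules into polymers, read 2.27, 2.13 and 2.50 without dox and 6.56, 6.90 and 6.69 with dox. It rose by 4.41 ± 0.11 on the log2 scale, or 21.3-fold (adjusted p = 1e-19), and again the groups did not overlap. Both genes started near the bottom of the scale, where no detection call was available and RMA shrinks differences, so the folds and their order depend on the background there.

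**Figure D1:**
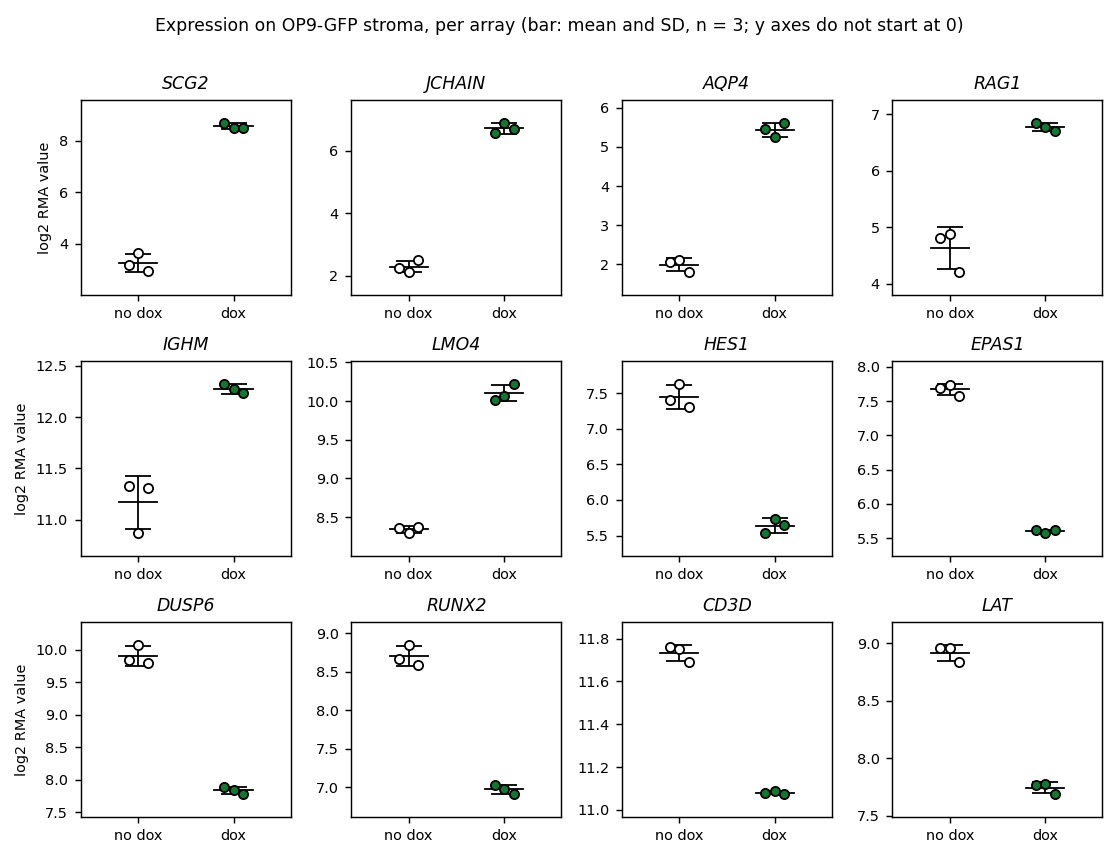
Log2 RMA value of 12 genes on each of the 6 OP9-GFP arrays, open circles without dox and filled circles with dox, with the group mean and SD (n = 3). In all 12 genes the groups do not overlap, with *SCG2*, *JCHAIN*, *AQP4*, *RAG1*, *IGHM* and *LMO4* higher with dox and the other 6 lower.

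The other 13 of the 15 largest rises held genes from several tissues. *COBL*, an actin nucleator, rose by 3.48 ± 0.13, and *AQP4*, a water channel of astrocytes and skeletal muscle, by 3.45 ± 0.13. *CSRP3*, the muscle LIM protein of the sarcomere, read 3.99, 4.37 and 3.81 without dox and 7.55, 7.34 and 7.23 with dox. It rose by 3.32 ± 0.16 (adjusted p = 6.2e-14). Membrane transporters and channels were *SLC6A13* (a GABA and taurine transporter, 3.11) and *SLC5A12* (a sodium-coupled lactate transporter, 3.09), besides *AQP4*. Enzymes were *KYNU* of the kynurenine pathway (2.72), *GLDC* of the glycine cleavage system (2.45) and the enamel protease *MMP20* (2.23). *PSTPIP2*, an adaptor of actin and membranes, rose by 2.78, the protocadherin *FAT3* by 2.22, *LRP11* by 2.16 and the succinate receptor *SUCNR1* by 2.04. *FAT3* rose by 1 of its 3 probe sets and *AQP4* by 3 of 5. *RAG1*, the recombinase of antigen receptor genes, completes the 15 (2.14). These 13 genes were chosen for their size and lack of overlap, so both are given as a description.

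The 15 largest falls held regulators and matrix genes, besides genes of other kinds. *ST18*, a zinc finger repressor, had its lowest array without dox at 4.94 and its highest array with dox at 2.88. It fell by 2.62 on the log2 scale (SE 0.17, adjusted p = 5.8e-11), but 1 of its 4 probe sets passed the test. *EPAS1*, which encodes the hypoxia factor HIF-2 alpha, read 7.70, 7.74 and 7.58 without dox and 5.62, 5.57 and 5.61 with dox, and fell by 2.07 (SE 0.07, adjusted p = 2.8e-16). Only 1 of its 3 probe sets passed the test.

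*DUSP6*, the phosphatase that inactivates ERK, read 9.84, 10.08 and 9.79 without dox and 7.89, 7.84 and 7.77 with dox. It fell by 2.07 (SE 0.09, adjusted p = 9.2e-15), and all 3 of its probe sets fell. *RUNX2*, a Runt factor known from bone and from progenitors, fell by 1.73, but 1 of its 6 probe sets passed the test. Matrix genes were *COL15A1* (log2 -2.17), *OGN* (-2.05) and *COL6A3* (-1.75), with the platelet and endothelial protein *MMRN1* at -1.93. *HDC*, the enzyme that makes histamine, fell by 1.80, and *RAB27B*, a GTPase of granule release, by 1.84. *CNTNAP4*, *PAX8-AS1*, *ACSL6* and *LINGO2* fell by 1.74, 1.70, 1.66 and 1.62, and *HES1* by 1.81. *CNTNAP4* fell by 2 of 4 probe sets, *PAX8-AS1* by 1 of 3, *ACSL6* by 3 of 5 and *LINGO2* by 1 of 2.

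**Figure D2:**
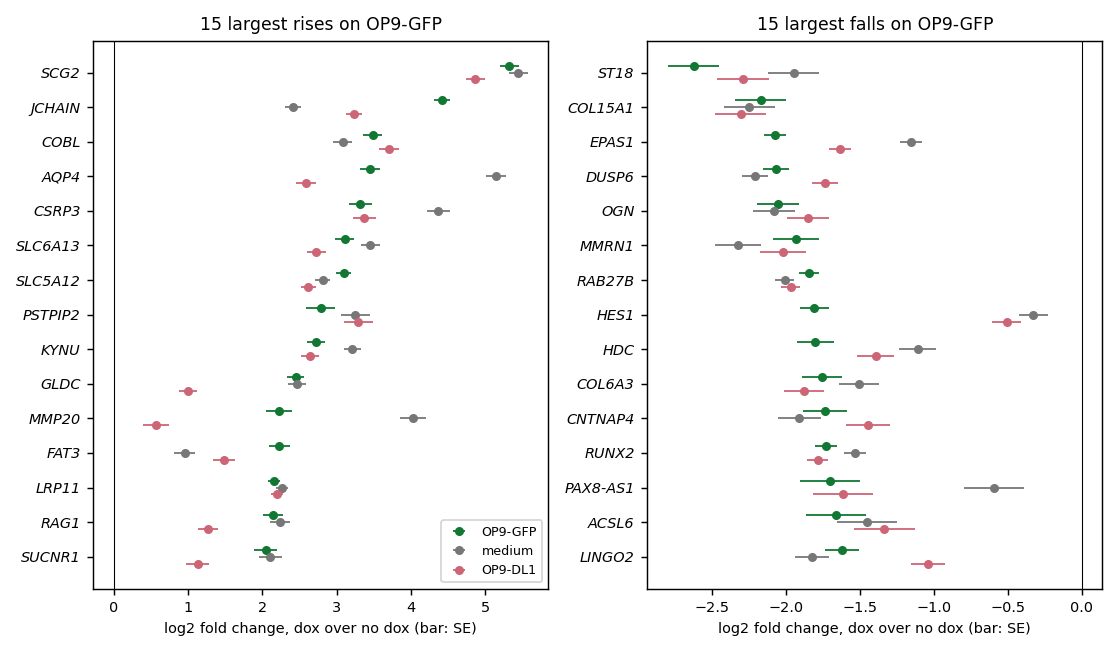
Log2 fold change with dox (points, with SE bars) of the 15 genes that rose most and the 15 that fell most on OP9-GFP (green), with the same genes in medium (grey) and on OP9-DL1 (pink). Genes were ranked by the green points. *JCHAIN* and *HES1* have a larger change on OP9-GFP than in either other culture, while *AQP4*, *CSRP3* and *MMP20* rose more in medium.

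Most of what rose on OP9-GFP also rose elsewhere, where 994 genes rose in medium (5.03%) and 508 on OP9-DL1 (2.57%), while 707 fell in medium (3.58%) and 658 on OP9-DL1 (3.33%). Of the 600 genes that rose on OP9-GFP, 405 rose in medium (67.5% of the OP9-GFP genes and 40.7% of the medium genes) and 341 on OP9-DL1 (56.8% and 67.1%). Of the 905 that fell, 454 fell in medium (50.2% and 64.2%) and 486 on OP9-DL1 (53.7% and 73.9%). In all 3 cultures 302 genes rose and 332 fell. Across the 19775 genes the fold changes on OP9-GFP correlated with those in medium at r = 0.687 (rho = 0.456) and with those on OP9-DL1 at r = 0.679 (rho = 0.39). These are descriptions over genes, which are not independent replicates. A call in 1 culture and not in another does not show that the effects differ, and the difference itself was tested.

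The induction effect on OP9-GFP differed from that in medium for 97 genes, 20 with a more positive effect on OP9-GFP (0.101% of those tested) and 77 with a more negative one (0.389%). It differed from that on OP9-DL1 for 26 genes, 15 more positive (0.0759%) and 11 more negative (0.0556%). Only 8 genes differed from both, and 6 of them in the same direction. *JCHAIN* and *EVI2A* had a more positive effect on OP9-GFP than in either other culture, and *HES1*, *TP53INP1*, *CPA3* and *DUSP2* a more negative one. *MMP20* and *HBD* differed in opposite directions. The difference of *CPA3* from medium and that of *HBD* from OP9-DL1 each lost their call without any of 10 of the 12 arrays compared.

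**Figure D3:**
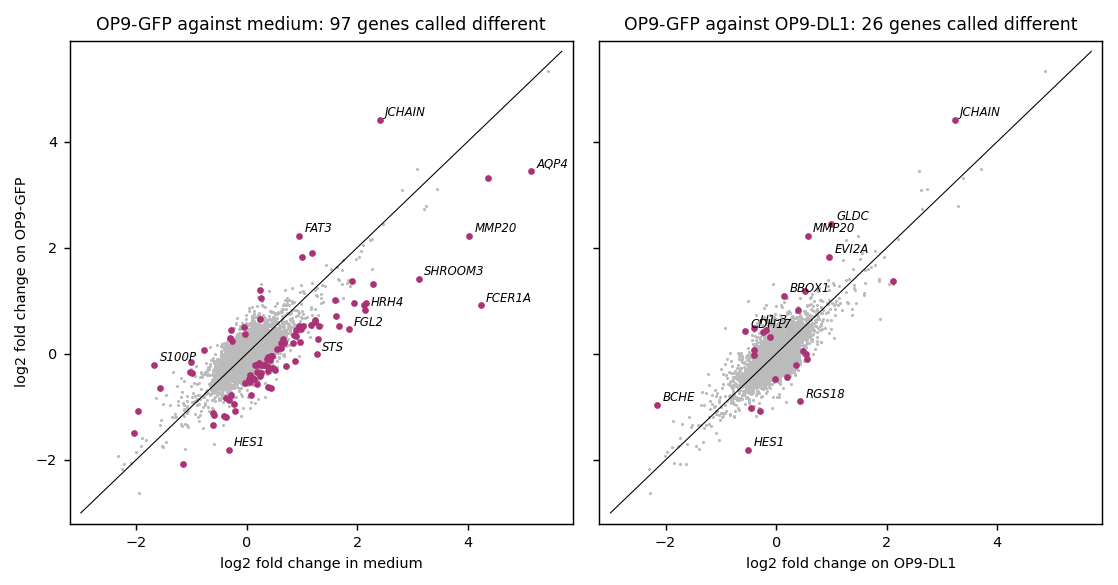
Log2 fold change with dox on OP9-GFP (y axis) against that in medium (left) or on OP9-DL1 (right) for 19775 genes, with the line of equal change. Purple points are the 97 and 26 genes whose effect differed at an adjusted p under 0.05, and *HES1* lies below and *JCHAIN* above the line in both panels.

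*HES1* was 1 of the 4 with a more negative effect on OP9-GFP. There it read 7.40, 7.63 and 7.31 without dox and 5.53, 5.74 and 5.65 with dox, a fall of 1.81 on the log2 scale (3.50-fold lower, adjusted p = 1.9e-12). In medium it read 5.56, 5.84 and 5.36 without dox and 5.17, 5.30 and 5.31 with dox, a difference of -0.33. On OP9-DL1 it read 9.22, 9.43 and 9.37 without dox and 8.89, 8.88 and 8.72 with dox, a difference of -0.51. The arrays on OP9-GFP without dox thus lay between those in medium and those on OP9-DL1, and the arrays on OP9-GFP with dox lay inside the range of the medium arrays without dox. The fall on OP9-GFP exceeded that in medium by 1.48 ± 0.14 (SE, adjusted p = 1.4e-06) and that on OP9-DL1 by 1.30 ± 0.14 (adjusted p = 6.1e-05).
A second probe set of *HES1* also fell more on OP9-GFP, with log2 fold changes of -1.46 there, -0.50 in medium and -0.66 on OP9-DL1. On that probe set the OP9-GFP arrays with dox read 4.48, 4.82 and 4.42, all above the medium arrays without dox (3.90, 4.05 and 4.16), unlike on the first. The third did not pass the test (-0.24, adjusted p = 0.49, at levels of 3.05 to 3.80 on OP9-GFP).

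*JCHAIN* moved the other way. Over the 9 arrays without dox it ranged from 2.13 to 2.50, with means of 2.30 ± 0.19 (SD, n = 3) on OP9-GFP, 2.45 ± 0.07 in medium and 2.33 ± 0.09 on OP9-DL1. With dox it read 6.71 ± 0.17 on OP9-GFP, 4.86 ± 0.10 in medium and 5.56 ± 0.22 on OP9-DL1, and every OP9-GFP array with dox was above every other array of the line. The rise on OP9-GFP exceeded that in medium by 2.01 ± 0.15 (SE, adjusted p = 1.5e-08) and that on OP9-DL1 by 1.18 ± 0.15 (adjusted p = 0.00034). In both *HES1* and *JCHAIN* a single probe set per gene carries the value given here, and *JCHAIN* has no other.

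**Figure D4:**
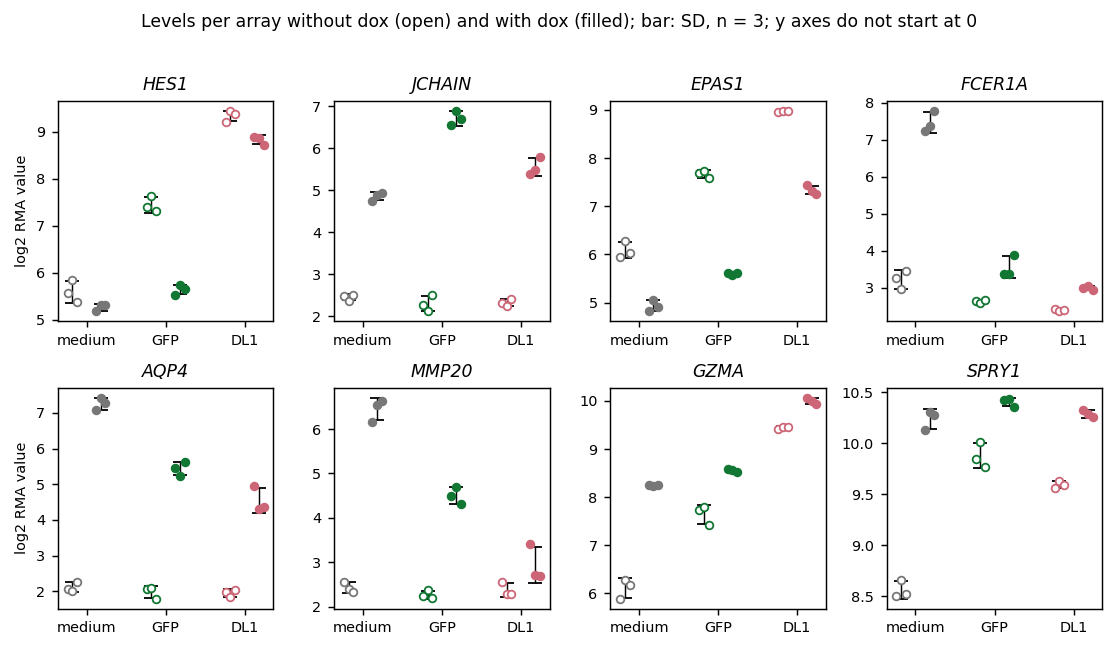
Log2 RMA value of 8 genes on the 18 arrays of the MEF2C line in its 3 cultures (medium, OP9-GFP, OP9-DL1), without dox (open) and with dox (filled), with SD bars (n = 3). *HES1*, *EPAS1*, *GZMA* and *SPRY1* were higher on OP9-GFP than in medium before dox, while *JCHAIN*, *AQP4* and *MMP20* differ between cultures after dox.

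The 250 bases before the start of transcription of *HES1* and *JCHAIN* are shown because these genes had opposite responses that were each largest on OP9-GFP. The sequences are from RefSeq (GRCh38.p14), at chr3:194135898-194136147 on the plus strand for *HES1* and chr4:70666509-70666758 on the minus strand for *JCHAIN*. Both are written 5′ to 3′ along the gene. Capitals mark matches on either strand to TGGGAA (the core read by RBPJ, the DNA-binding partner of Notch, and part of the longer form TGTGGGAA) and to the MEF2 consensus with 1 mismatch allowed, which reads the same on both strands.
HES1: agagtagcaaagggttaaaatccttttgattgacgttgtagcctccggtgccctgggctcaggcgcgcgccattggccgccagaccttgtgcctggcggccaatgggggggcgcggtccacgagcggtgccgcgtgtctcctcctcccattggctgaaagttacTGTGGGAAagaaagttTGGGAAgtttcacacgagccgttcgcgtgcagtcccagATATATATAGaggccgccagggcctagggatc
JCHAIN: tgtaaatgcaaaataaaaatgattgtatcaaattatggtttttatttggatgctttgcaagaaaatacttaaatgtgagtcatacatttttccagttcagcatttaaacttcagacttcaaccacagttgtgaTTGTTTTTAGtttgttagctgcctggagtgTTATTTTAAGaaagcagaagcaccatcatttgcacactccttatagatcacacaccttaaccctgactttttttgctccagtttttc
The *HES1* window holds TGTGGGAA at 86 to 79 bases before the start and TGGGAA also at 70 to 65. TGTGGGAA occurs on either strand in 1.43% of all 35116 promoter windows of 250 bases, and TGGGAA in 20.8%. Matches to the MEF2 consensus with 1 mismatch lie 32 to 23 bases before the start of *HES1* and at 117 to 108 and 87 to 78 bases before that of *JCHAIN*, which holds neither RBPJ word. Such a match occurs in 22% of all windows and the exact consensus in 2.8%. Of the 52 genes named for their size of change or of difference, 43 have a window in the table. Of these, 1 (*YWHAH*) holds the exact consensus, 20 a match with 1 mismatch, 2 (*HES1* and *RGS18*) TGTGGGAA and 13 TGGGAA. Some genes have several windows (*ACSL6* has 7 and *STS* 5), and a match in any of them was counted. The counts per gene therefore cannot be set against the shares per window. These are matches of letters, and no binding data were used here.

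Several other genes that fell more on OP9-GFP than in medium were also higher on OP9-GFP before dox. *EPAS1* fell by 2.07 on OP9-GFP against -1.16 in medium (difference -0.92 ± 0.10, adjusted p = 2.2e-05), and without dox it read 7.67 on OP9-GFP and 6.09 in medium. *CXCR3*, a chemokine receptor of activated T cells, read 6.02 without dox and 4.82 with dox on OP9-GFP, against 4.76 and 4.40 in medium (difference -0.83 ± 0.18, adjusted p = 0.044). The call for *CXCR3* was lost when any of 9 single arrays was left out. *SLA*, an adaptor that dampens antigen receptor signaling, read 10.75 and 9.60 on OP9-GFP and 9.79 and 9.20 in medium (difference -0.56 ± 0.10, adjusted p = 0.0069). The comparison of the cultures without dox shares the arrays without dox with these effects, so the levels are given side by side and no relation between them is drawn.

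Other genes had a smaller rise on OP9-GFP than in medium, or none, and were higher on OP9-GFP without dox. Their levels with dox lay closer together in these cultures. That follows from a higher start and a smaller rise, which share the arrays without dox, and is no separate result. *GZMA*, a granule protease of cytotoxic cells, read 7.64 without dox and 8.56 with dox on OP9-GFP, against 6.12 and 8.24 in medium, so that its rise of 0.91 was smaller by 1.21 ± 0.12 (adjusted p = 4.1e-06). *SPRY1*, a feedback inhibitor of receptor tyrosine kinases, read 9.88 and 10.40 on OP9-GFP and 8.56 and 10.24 in medium (difference -1.15 ± 0.11, adjusted p = 1.2e-06). *STS*, the steroid sulfatase, read 7.12 and 7.11 on OP9-GFP and 5.57 and 6.84 in medium (difference -1.29 ± 0.13, adjusted p = 5.4e-06), and it did not pass the test on OP9-GFP itself.

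Further genes also rose less on OP9-GFP than in medium. *FCER1A*, the alpha chain of the high-affinity IgE receptor, read 2.64 and 3.56 on OP9-GFP but 3.23 and 7.46 in medium, the largest difference of all genes (-3.32 ± 0.20, adjusted p = 7.6e-10), while on OP9-DL1 it read 2.40 and 2.99. *MMP20* read 4.49 with dox on OP9-GFP, 6.45 in medium and 2.93 on OP9-DL1 (differences of -1.80 and 1.66, adjusted p = 0.0003 and 0.0024). *AQP4* read 5.43 with dox on OP9-GFP and 7.26 in medium (difference -1.70 ± 0.19, adjusted p = 1.5e-05). *SHROOM3*, which shapes epithelial cells through actin, rose by 1.41 on OP9-GFP and 3.12 in medium, and *FGL2*, a fibrinogen-like protein of T cells and macrophages, by 0.46 and 1.85. *CSRP3* also rose less than in medium (-1.05, adjusted p = 0.026), a call lost without any of 7 single arrays.

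Against OP9-DL1 the leading differences were few. *GLDC* rose by 2.45 on OP9-GFP and 0.99 on OP9-DL1 (difference 1.45 ± 0.17, adjusted p = 0.00014), while its rise in medium was 2.47. *RGS18*, a brake on G protein signaling in blood cells, read 8.27 without dox and 7.37 with dox on OP9-GFP but 8.50 and 8.93 on OP9-DL1 (difference -1.32 ± 0.13, adjusted p = 1.1e-05). *TP53INP1*, a p53-induced stress protein, rose by 1.37 on OP9-GFP, 1.90 in medium and 2.11 on OP9-DL1, and the adjusted p of the differences was 0.0094 and 0.00072. On OP9-GFP 1 of its 3 probe sets rose. Over 20 alternatives its difference from medium ran from -0.61 to -0.09 and that from OP9-DL1 from -0.82 to -0.22. Each lost its call in 2 of them. *EVI2A* rose by 1.82 on OP9-GFP, 1.00 in medium and 0.95 on OP9-DL1 (adjusted p = 0.0069 and 0.0084). Over 20 alternatives, each of these differences lost its call in 1.

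Groups of related genes are given by how many of their measured members passed the test, beside the 3.03% that rose and 4.58% that fell among all genes and the median log2 fold change of all genes, -0.03. In all, 29 lists were read, and antigen receptor genes are given first. Among 10 immunoglobulin chain genes, 3 rose and 0 fell (median 0.22). Besides *JCHAIN*, *IGHM*, the mu heavy chain, read 11.33, 10.87 and 11.31 without dox and 12.32, 12.27 and 12.23 with dox, and rose by 1.11 ± 0.09 (adjusted p = 2.9e-09). The lower value is that of array 2 without dox, and the groups did not overlap. *IGHM* rose by 4 of 5 probe sets, and *IGHD* rose by 0.39. *IGHA1* and *IGHG1* read -0.21 and -0.09.

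V(D)J recombination, which assembles antigen receptor genes, had 3 risen and 0 fallen of 13 (median 0.00). *RAG1* read 4.82, 4.89 and 4.20 without dox and 6.85, 6.78 and 6.70 with dox, and rose by 2.14 ± 0.13 (adjusted p = 1.9e-11). Its partner *RAG2* read 4.75, 4.98 and 4.72 without dox and 5.81, 5.86 and 5.68 with dox, and rose by 0.96 ± 0.14. Neither pair of groups overlapped. *LIG4*, the ligase that seals the breaks, rose by 0.51, less than in medium (difference -0.80, adjusted p = 0.00066), and *DNTT*, which adds bases at the joints, read -0.19 (adjusted p = 0.36).

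Signaling parts of the B cell receptor did not rise with these genes. Of 24 such genes 0 rose and 1 fell, *BANK1*, a B cell scaffold (log2 -1.04). *VPREB1* and *IGLL1*, the surrogate light chain, read -0.02 and 0.19, and *CD79A* and *CD79B* read 0.08 and -0.01, none past the test. B lineage transcription factors moved in both directions, 6 up and 5 down of 24 (median -0.04). *IRF8* rose by 1.34 ± 0.18 (5.20, 5.42 and 4.58 without dox, 6.29, 6.65 and 6.29 with dox), *BCL6* by 0.65, *ID3* by 0.59, *IKZF1* by 0.53, *EBF1* by 0.45 and *SOX4* by 0.18. *POU2AF1*, the octamer coactivator, fell by 1.20, *POU2F2* by 0.69, *BACH2* by 0.48, *LEF1* by 0.47 and *SPI1* by 0.38. *PAX5* read 0.03 (adjusted p = 0.92).

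T cell receptor signaling was the list with the most falls, 14 of 29, against 2 that rose (median -0.27). *LAT*, the adaptor that gathers the signaling complex, read 8.96, 8.96 and 8.84 without dox and 7.77, 7.78 and 7.69 with dox, and fell by 1.17 (SE 0.12, adjusted p = 2.2e-07). *TESPA1* fell by 0.82, *PRKCH* by 0.78, *CD5* and *PTPN22* by 0.77 and the kinase *LCK* by 0.33, while the kinase *TXK* rose by 1.42 ± 0.11. The list had 12 to 17 calls without single arrays and 8 in a fit of the 6 arrays alone, against 16. Of 11 genes of the receptor complex 2 fell, *CD3D* (11.76, 11.75 and 11.69 without dox, 11.08, 11.09 and 11.07 with dox, log2 -0.65) and *TRAT1* (-0.71), and *CD3E* and *CD3G* read -0.18 and -0.11. T lineage transcription factors had 2 risen, *SATB1* by 0.66 and *GATA3* by 0.51, and 5 fallen of 15 (median -0.17), with *HES1* and *RUNX3* (-0.49) among them.

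Notch receptors, ligands and targets had 2 risen and 3 fallen of 30 (median 0.04), and *HES1* was the only target that fell by more than 1. *TRIB2*, a pseudokinase under Notch control in T cells, rose by 0.65 and *HES6* by 0.25, and *JAG2* and *MAML3* fell by 0.47 and 0.37. The Notch receptors *NOTCH1*, *NOTCH2* and *NOTCH3* read 0.12, 0.05 and 0.06, and the targets *DTX1*, *NRARP* and *HEY1* read 0.07, 0.05 and -0.01, none past the test. *HES4* read 0.91 (adjusted p = 0.27). The count of the list fell from 5 to 3 without array 1 or 2 without dox and without array 1 or 3 with dox.

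LMO, LYL1 and TAL1 complex genes, which hold several oncogenes of T cell leukemia, had 3 risen and 3 fallen of 15 (median -0.09). *LMO4* read 8.36, 8.29 and 8.38 without dox and 10.02, 10.07 and 10.23 with dox and rose by 1.76 ± 0.08, and *LMO1* rose by 1.30. *LYL1* fell by 0.68, and *LMO2* read -0.12 (adjusted p = 0.43). In IL-7 and JAK-STAT signaling 2 rose and 5 fell of 24 (median -0.09). The receptor *IL7R* rose by 0.99 ± 0.12, with 1 of its 2 probe sets past the test, and *SOCS2*, a feedback inhibitor, by 0.61. *IL2RB* fell by 0.78, *JAK1* by 0.39, *STAT5B* by 0.37 and *STAT5A* by 0.31. *BCL2*, the survival gene, rose by 0.53 ± 0.07, with 2 risen and 1 fallen of 16 in its family. The other rise was in *BAD* (0.40) and the fall in *BCL2L2* (-0.31).

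In ERK feedback and immediate early genes more members fell than rose, and most did not pass the test. Of 16 ERK feedback genes 6 fell and 1 rose (median -0.24): beside *DUSP6*, *SPRED2* fell by 0.82, *ETV5* by 0.75 and *DUSP5* by 0.53, and *SPRY1* rose by 0.53. Of 19 early response genes 6 fell and 0 rose (median -0.17), with *FOSL2* at -0.64, *NR4A2* at -0.57 and *JUN* at -0.54. *JUN* read 8.51, 8.66 and 8.69 without dox and 8.04, 8.03 and 8.17 with dox, and its change in medium was 0.06 (difference -0.60, adjusted p = 0.032, a call lost without any of 9 single arrays). Of 13 glucocorticoid receptor and response genes 5 fell, *SLA* by 1.15 and *DDIT4* by 0.56 among them, and *DUSP1*, a phosphatase of p38 and JNK, rose by 0.93 ± 0.06.

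Adhesion and homing receptors had 9 fallen and 3 risen of 30 (median -0.12). The integrin chain *ITGAL* read 6.96, 6.79 and 6.76 without dox and 5.56, 5.60 and 5.31 with dox and fell by 1.35. *CXCR3* fell by 1.20, *CCR7* by 0.83 and the selectin ligand *SELPLG* by 0.68. *KLF2*, a regulator of homing genes, rose by 0.95, with 1 of its 2 probe sets past the test. Myeloid genes had 7 fallen and 0 risen of 27 (median -0.10), with *FCER1G* at -0.79 and *CTSG* at -0.65. Without array 2 with dox the count of the myeloid list was 4. NK and cytotoxic genes had 5 fallen and 1 risen of 22 (median -0.16), with *CST7* at -1.14, *CD244* at -0.86 and *EOMES* at -0.62, and *GZMA* risen by 0.91.

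In 2 metabolic lists more members fell than rose, and most did not pass the test. In glycolysis and the hypoxia response 9 fell and 1 rose of 29 (median -0.18), with the glucose transporter *SLC2A3* at -0.97 and *HK1* at -0.29. In cholesterol and fatty acid synthesis 8 fell and 1 rose of 26 (median -0.13), with *HMGCS1* and *ELOVL6* at -0.47. In a fit of the 6 arrays alone, the calls in these lists numbered 1 and 3 in all. Cell cycle genes had 3 fallen and 0 risen of 34 (median 0.00), MYC and ribosome biogenesis genes 2 fallen and 0 risen of 21, and 0 of 12 MHC class II genes passed the test.

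The integrated stress response had 4 risen and 5 fallen of 30 (median -0.05), a count of 9 that was 5 without array 2 without dox, 4 without array 2 with dox and 5 without array 3 with dox. Interferon-stimulated genes had 5 fallen of 28 (median -0.05), led by *IFITM1* at -0.87, a count that was 3 without array 1 or 2 without dox or array 2 or 3 with dox. Progenitor genes had 2 risen and 2 fallen of 21 (median -0.08), with *WT1* at -0.95.

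Of 37 sarcomere and myogenic genes 2 rose, *CSRP3* and the oxygen carrier *MB* (0.58), and 3 fell (median -0.10), with the giant sarcomere protein *TTN* at -1.24 and *TPM1* at -0.60. *MYOG* and *MYH7* read -0.09 and -0.11. In the MEF2 family and its regulators, *HDAC9* rose by 0.40 and *HDAC5* by 0.36, *HDAC4* fell by 0.31, and *MEF2A* and *MEF2D* read -0.19 and 0.04, neither past the test. The list counts *MEF2C* as fallen, by its brightest probe set, and its called count of 4 was 8 without array 3 without dox.

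Genes of stromal cells had 6 fallen and 0 risen of 30 (median -0.15), and adipocyte genes 1 fallen of 14 (median -0.16), *FABP4* (-0.49), whose call was lost without any of 5 of the 6 arrays. The falls were in *COL6A3* (log2 -1.75), *CAV1* (-0.83), *LGALS1* (-0.81), *S100A6* (-0.62), *TIMP1* (-0.50) and *SPARC* (-0.34). In medium, without any stroma, the same list had 7 fallen and 1 risen (median -0.17), with *COL6A3* at -1.51 and *LGALS1* at -0.78. Among the list members named above, the calls of *BAD*, *CD5*, *HDAC4*, *HES6*, *MAML3*, *SOX4*, *SPARC* and *SPI1* were also lost without at least 1 array.

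**Figure D5:**
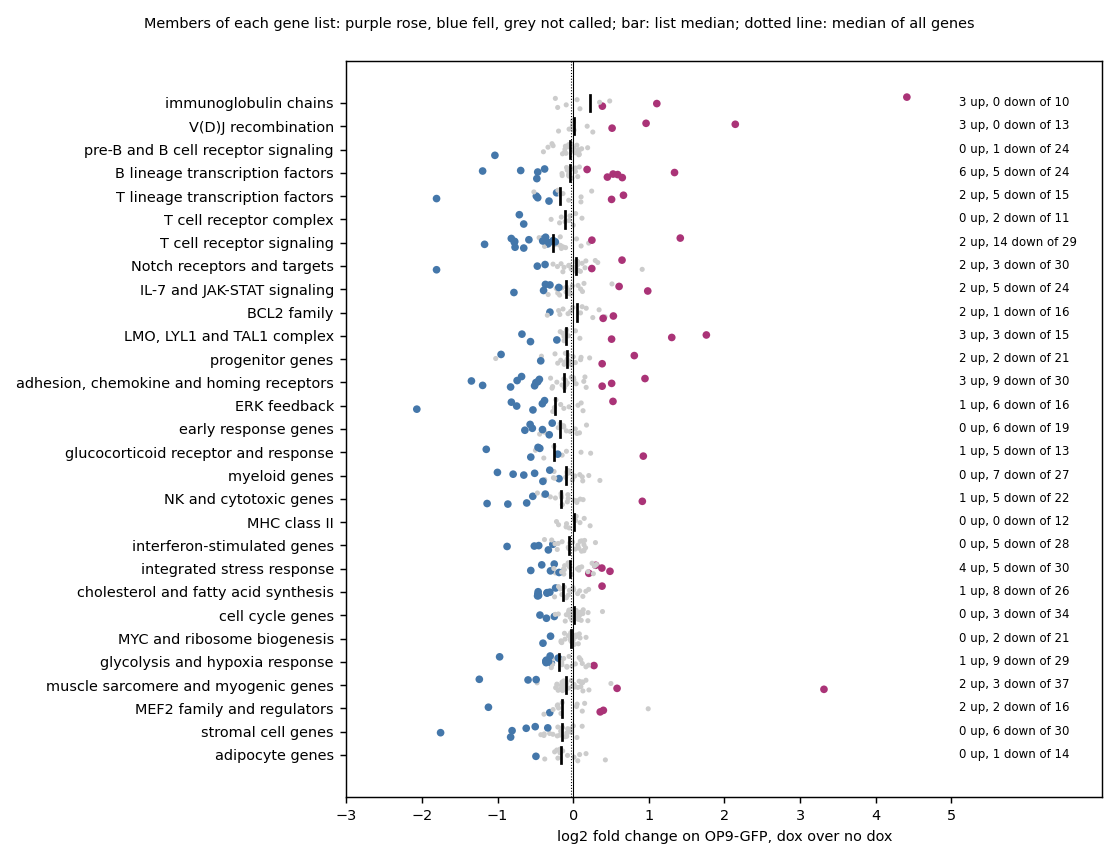
Log2 fold change with dox on OP9-GFP of the measured members of 29 gene lists (purple rose, blue fell, grey did not pass the test), with the median of each list as a black bar, the median of all genes as a dotted line and the counts at the right. In the immunoglobulin list 3 of 10 genes rose, in the V(D)J list 3 of 13 rose, and 14 of 29 T cell receptor signaling genes fell.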

How the data were processed

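LOUCY lines were profiled in 10 conditions of 3 on 30 Affymetrix HG U133 Plus 2.0 arrays, and the 6 arrays of the MEF2C line on OP9-GFP are described here. The authors deposited log2 expression values made with RMA (background correction, quantile normalization, summary per probe set). They list affy 1.64.0 under R 3.6.3 in the submitters' processing notes. RMA sets the arrays to a common distribution, so a change in total RNA per cell cannot be seen, and dim probe sets have shrunken fold changes. Arrays have no read depth, and their number limits the precision. Of 54675 probe sets, the 62 control probe sets were left out. 41097 carry 1 gene symbol in the platform annotation, 1801 several and 11777 none there, and only the first were named. Of these, 41043 matched the RefSeq gene table by gene identifier, and 0 symbols changed. This left 19775 genes.

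limma 3.58.1 in R 4.3.3 was fitted in 1 model over all 30 arrays and 10 conditions, with no covariate and contrasts for induction in each culture and for their differences. The study used limma on larger pooled groups with and without dox. Its methods also name a t-test for MEF2C-induced expression levels in these lines, apart from the array methods. That t-test was run on this comparison as an alternative. The genes named are the 15 largest rises and falls on OP9-GFP (adjusted p under 0.05, log2 beyond 0.6, no overlap of the groups), the 8 largest differences each way from medium and from OP9-DL1, *MEF2C*, and members of 29 lists; *DUSP2* is also named, as 1 of the 8 genes that differed from both. The members, lists and tests were chosen with earlier results of these data known. The steps were tested on simulated data. Alternatives were a filter on dim probe sets, other normalizations and variance priors, other criteria, the arrays compared alone, the replicate number as a block, other choices of probe set, and leaving out each array. ChIP-Seq and flow cytometry were not analysed here.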

Additional observations from a re-analysis of the deposited data

Results flagged for a closer look

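Groups of 3 arrays were not tested for outlying samples. Among the genes named and the members of the lists, 35 had an induction effect on OP9-GFP that differed from the effect in medium, by limma at an adjusted p under 0.05. The values below are the log2 fold change on OP9-GFP minus that in the other culture. Below 0 against medium were *FCER1A* -3.32, *MMP20* -1.80, *SHROOM3* -1.71, *AQP4* -1.70, *HES1* -1.48, *FGL2* -1.38, *HRH4* -1.31, *STS* -1.29, *GZMA* -1.21, *SPRY1* -1.15, *CSRP3* -1.05, *EPAS1* -0.92, *CXCR3* -0.83, *LIG4* -0.80, *NR4A2* -0.75, *TRIB2* -0.60, *JUN* -0.60, *SLA* -0.56, *CD244* -0.55, *TP53INP1* -0.53, *MYOM2* -0.50, *PRKCH* -0.49, *IKZF1* -0.48, *CPA3* -0.47 and *TOX* -0.38. Above 0 were *SLC7A11* 0.60, *EVI2A* 0.83, *NEGR1* 0.84, *GPNMB* 0.86, *HBD* 0.88, *CTSG* 0.92, *PTPRR* 0.96, *FAT3* 1.27, *S100P* 1.46 and *JCHAIN* 2.01.

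Against OP9-DL1, 16 differed. Below 0 were *RGS18* -1.32, *HES1* -1.30, *HBD* -0.80, *TP53INP1* -0.74, *YWHAH* -0.65, *TAF1D* -0.63, *CPA3* -0.57 and *DPF3* -0.56. Above 0 were *EVI2A* 0.87, *H1-3* 0.90, *BBOX1* 0.95, *CDH17* 0.99, *BCHE* 1.18, *JCHAIN* 1.18, *GLDC* 1.45 and *MMP20* 1.66. In a fit of the 12 arrays compared alone, 19 of the calls against medium and 13 of those against OP9-DL1 were lost. Some calls were also lost when single arrays were left out, 11 of those against medium and 6 of those against OP9-DL1. The most fragile, lost without any of 9 or 10 of the 12 arrays, were *CPA3*, *CXCR3*, *JUN*, *MYOM2* and *NR4A2* against medium and *BBOX1* and *HBD* against OP9-DL1.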

How the results depend on the processing

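On OP9-GFP 3379 probe sets changed with dox (1732 higher, 1647 lower), and the count was within 1.5 times of this with a filter on dim probe sets, quantile normalization, centring on the median and another variance prior. It was 960 with the 6 arrays alone, 1013 at the study's thresholds applied to this comparison, and 251 with a log2 fold change beyond 1. By the t-test it was 6516 at the unadjusted threshold or 288 after Benjamini-Hochberg. Leaving out single arrays gave 2363 to 3808. The 187 probe sets that differed from medium became 286 with a trended and robust prior, 40 with the 12 arrays alone, 41 with a log2 difference beyond 1, and 132 to 242 without single arrays. The 81 that differed from OP9-DL1 became 150 with the filter on dim probe sets, 170 with the trended and robust prior, 9 with the 12 arrays alone, 14 with a log2 difference beyond 1, and 45 to 107 without single arrays (45 without array 1 without dox and 47 without array 2 with dox on OP9-DL1). Fits of the arrays alone have fewer degrees of freedom and their own estimate of the spread. The cause of these shifts was not tested.

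With the replicate number as a block the counts were 3489, 193 and 72. Deviations of same-numbered arrays correlated at 0.0112, 0.0535 and 0.162, so the numbers are not shown to pair the arrays. Under the block 3 calls of named genes were lost, *SPINK2* on OP9-GFP and the differences of *NR4A2* from medium and *BBOX1* from OP9-DL1.

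Of the fold changes on OP9-GFP checked, 11 values turned sign when the gene was read by another probe set, and none of them passed the test there. By the probe set of largest variance they were *IGHM* -0.057, *LEF1* 0.51, *BCL2L2* 0.15, *TSC22D3* 0.073, *TXNIP* 0.0089, *GLUL* 0.43, *IDI1* 0.13, *LSS* 0.27, *CDC25A* 0.17 and *PGK1* 0.020, and by the mean of all its probe sets *GLUL* 0.065. The difference of *IKZF1* from medium turned to 0.43 by its probe set of largest variance. The fall of *HES1*, the rise of *JCHAIN* and their differences from medium kept their direction and passed the test in all alternatives run, as did the difference of *HES1* from OP9-DL1, while that of *JCHAIN* from OP9-DL1 ran from 1.09 to 1.31 with 1 adjusted p of 0.07.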
